A study of Homo sapiens with 12 samples.

Results

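ARL6IP1 and 8 other genes whose proteins shape the membrane of the endoplasmic reticulum (ER) were followed in 12 RNA-seq libraries. All were made from 22Rv1, an established line of human prostate carcinoma cells. The 9 genes are ARL6IP1, ATL1, ATL2, ATL3, LNPK, RTN3, RTN4, REEP5 and CKAP4, and all 9 were found among the 61860 genes of both deposited count tables. ARL6IP1 was chosen by its fold changes in both experiments: its level was lower with ETS1 siRNA and higher with ZNF783 siRNA than in the matching controls, so its own values are described here without a test. The other 8 were named for their place in the same pathway, with earlier results of these data known, and were tested across all genes.

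There were 3 libraries in each of 4 groups: 22Rv1 cells with a knockdown of ETS1 by siRNA, the controls of that knockdown, 22Rv1 cells with a knockdown of ZNF783 by siRNA, and the controls of that second knockdown. ETS1 is a transcription factor of the ETS family, and ZNF783 is a zinc-finger protein gene. The titles mark both kinds of control as nc, and what those cells were given, the siRNA sequences, doses and times are not stated in the sources used here. All groups share the same line, grown in serum-supplemented RPMI medium, and each siRNA was compared with its own controls. Whether a group's libraries came from separate cultures is not stated, so each p-value reflects sample-to-sample spread that may be no more than technical.

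Total counts per library ranged from 13518177 to 48996691, and 3 counts, the limit that a count of 0 allows, equal 0.0612 to 0.222 CPM, counts scaled to a common library total (counting error only). ETS1 siRNA replicate 1 stood apart from its group, with a chi-square per degree of freedom of 40.3 and 38.9 against replicates 2 and 3, where every other pair within a group gave 1.36 to 2.93. Fold changes with ETS1 siRNA are therefore given with and without that library. The 95% intervals given below are a normal approximation from the standard error (SE). They are narrower than the edgeR test implies, and can exclude no change at an unadjusted p above 0.05. Log2 fold change ran with GC content across genes (Spearman -0.50 over 18990 genes with ETS1 siRNA and -0.38 over 17254 with ZNF783 siRNA). A fit that corrects for GC content and length is named for some of the genes whose call or direction it changes. It is not given for every gene, so a value without it may still depend on the correction. ETS1 had 0 to 3 counts in each library, with 0, 1 and 0 in its own controls and 0, 3 and 0 with its siRNA. Almost no ETS1 transcript was thus counted in either group. It could not serve as a check of the ETS1 labels, and no fall in ETS1 could be seen. ZNF783 averaged 28.0 ± 0.629 CPM with its siRNA and 34.8 ± 0.910 CPM in its controls (SD, n = 3 each; log2 fold change -0.31, edgeR adjusted p = 2.46e-05). It was also below its controls in every ETS1 siRNA library, at -0.38 (edgeR adjusted p = 0.258) and, without replicate 1, at -0.23 (edgeR adjusted p = 0.00146), and the difference between the siRNA effects on it, -0.05, was not called (edgeR adjusted p = 0.925). Markers of other cell types summed to 1.40 to 2.39 CPM per library for 4 leukocyte genes (CD3E at 0 in all 12), 0.0572 to 1.16 CPM for 3 endothelial genes and 14.5 to 28.6 CPM for 4 fibroblast genes. The fibroblast sum was 23.2 to 25.0 CPM with ZNF783 siRNA against 26.9 to 28.6 CPM in its controls, almost all of it COL1A1, and its part in the results below was not tested.

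The ER is one continuous membrane that takes the form of flat sheets and of a network of narrow tubules. ARL6IP1, the reticulons RTN3 and RTN4, and REEP5 insert hairpins into the outer leaflet and so hold the membrane in a curve. The atlastins ATL1, ATL2 and ATL3 are GTPases that fuse tubules with one another, lunapark (LNPK) sits at the junctions they make, and CKAP4 spaces the membranes of sheets. Mutations in ARL6IP1, ATL1 and several relatives cause hereditary spastic paraplegia, a disease of long motor axons, and ARL6IP1 and RTN3 also take part in ER-phagy, the turnover of ER by autophagy.

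ARL6IP1 had the highest level of the 9 genes for its length in both control groups, and the atlastin of neurons, ATL1, the lowest. Levels between genes are given as CPM per kilobase of annotated exon (RPKM). In the ETS1 controls, ARL6IP1 stood at 106 ± 4.30 RPKM, followed by RTN3 at 58.9 ± 1.71, REEP5 at 37.4 ± 0.405, ATL3 at 27.6 ± 0.588, CKAP4 at 27.4 ± 0.317, ATL2 at 23.7 ± 0.665, RTN4 at 8.98 ± 0.154, LNPK at 5.78 ± 0.358 and ATL1 at 3.52 ± 0.112 RPKM (SD, n = 3). ATL3 and CKAP4 did not differ there beyond their spread. In the ZNF783 controls, the order was ARL6IP1 at 88.6 ± 3.59, RTN3 at 65.2 ± 1.53, ATL3 at 41.1 ± 2.30, REEP5 at 40.3 ± 0.785, CKAP4 at 37.2 ± 0.384, ATL2 at 20.9 ± 0.958, RTN4 at 8.64 ± 0.385, LNPK at 7.19 ± 0.136 and ATL1 at 4.0 ± 0.134 RPKM, where ATL3 and REEP5 did not differ beyond their spread. The plot of control levels sets the groups side by side, and no test was run between them because each experiment was scaled on its own.

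**Figure D1:**
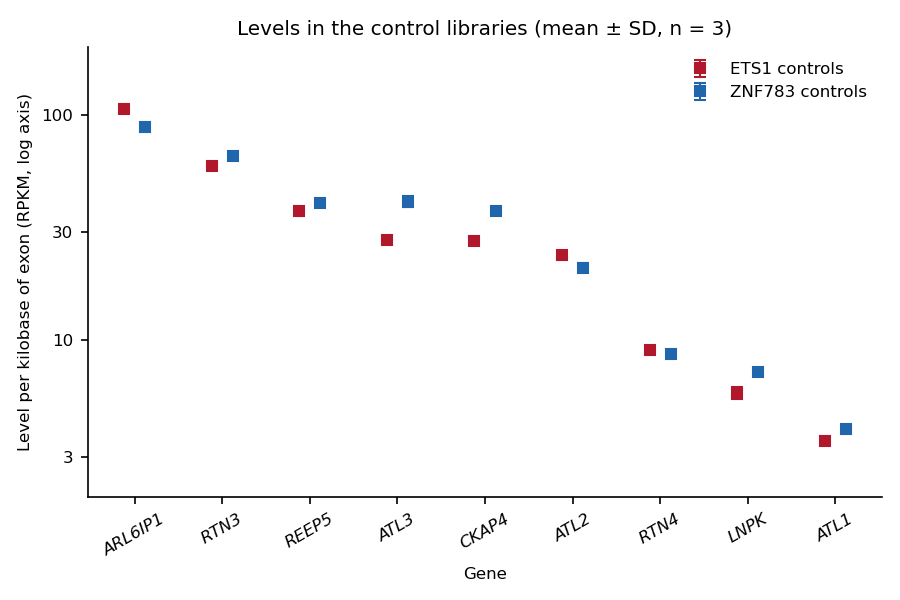
Level of each gene per kilobase of exon (RPKM, vertical log axis) in the control libraries of each experiment, as means with SD bars (n = 3) that are mostly smaller than the squares. ARL6IP1 lies highest at 106 RPKM in the ETS1 controls and 88.6 RPKM in the ZNF783 controls, and ATL1 lowest at 3.52 and 4.0 RPKM.

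ARL6IP1 (ENSG00000170540, GRCh38, chromosome 16, 18791667 to 18801678, minus strand) was lower with ETS1 siRNA and higher with ZNF783 siRNA in every library. It had 217, 273 and 265 CPM with ETS1 siRNA, against 401, 393 and 371 CPM in the ETS1 controls. With ZNF783 siRNA it had 447, 442 and 449 CPM, against 329, 310 and 335 CPM in the ZNF783 controls. The siRNA and control libraries did not overlap in either experiment, and ETS1 siRNA replicate 1 was the lowest of all 12. The group means were 252 ± 30.1 CPM with ETS1 siRNA and 388 ± 15.8 CPM in its controls, and 446 ± 3.22 CPM with ZNF783 siRNA and 325 ± 13.1 CPM in its controls (SD, n = 3 each).

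On the log2 scale ARL6IP1 was at -0.62 (SE 0.0916) with ETS1 siRNA, or 64.9% of its controls, and at 0.46 (SE 0.0272) with ZNF783 siRNA, or 137% of its controls. Leaving out ETS1 siRNA replicate 1, the first value was -0.53 (SE 0.0309), or 69.1%. The fold changes differed by -1.07 (SE 0.0971), ETS1 siRNA minus ZNF783 siRNA, and by -0.99 without that library. These values chose the gene and carry no test. The lower level in bulk RNA cannot tell fewer transcripts per cell apart from fewer cells that express the gene.

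The size of these values can be set beside other abundant genes, as a description. The same values chose the gene, so an extreme rank follows from the choice and adds no support. The ranks with ETS1 siRNA include replicate 1. Of 2644 genes with at least 100 CPM in the ETS1 controls, 7 had a log2 fold change as low as ARL6IP1 or lower, itself included. Of 2746 such genes in the ZNF783 controls, 6 were as high or higher. Among 10071 genes tested in both experiments with a mean of at least 10 CPM, PUF60, a splicing factor gene singled out after its values were seen, was the other gene of 2 that were as low with ETS1 siRNA and as high with ZNF783 siRNA.

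**Figure D2:**
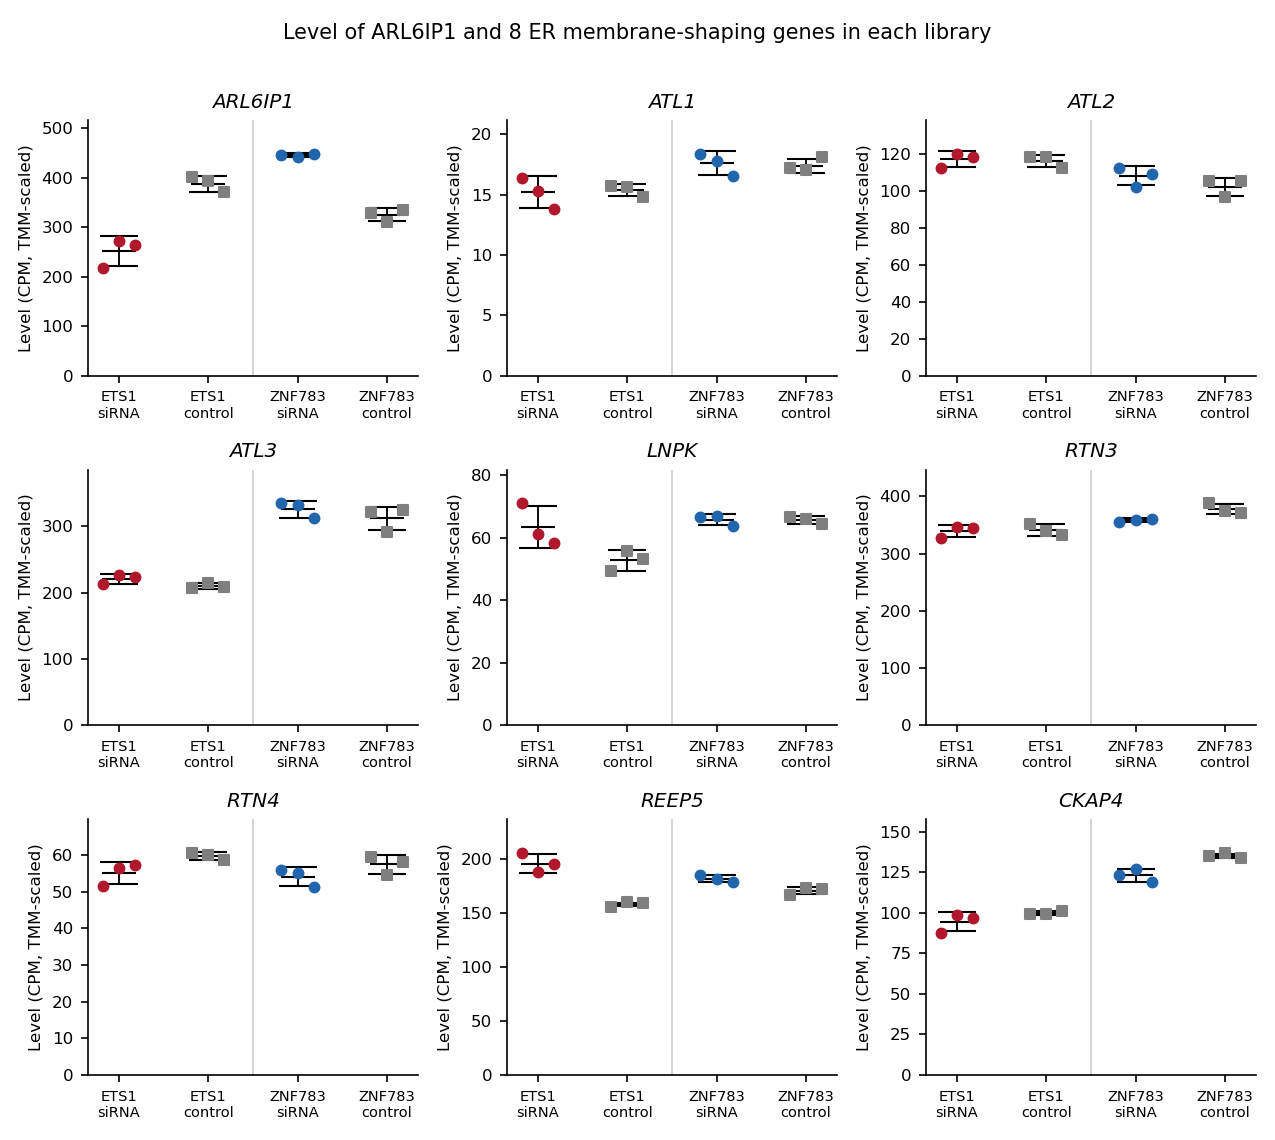
TMM-scaled CPM of the 9 genes (vertical axes from 0) in each library, with siRNA groups left of their own controls. Points are libraries, black bars the mean and SD of 3. ARL6IP1 is lower with ETS1 siRNA (252 CPM on average, against 388 in controls) and higher with ZNF783 siRNA (446 against 325), while the other genes move by much less.

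The values can also be written as ratios of raw counts within each library, which restate the choice of the gene and add no separate support. ARL6IP1 counts came to 20%, 24.5% and 23.9% of the summed counts of the other 8 genes with ETS1 siRNA, against 37.9%, 37.0% and 35.7% in its controls. With ZNF783 siRNA they came to 35.7%, 35.6% and 37.0%, against 26.1%, 25.6% and 26.9% in its controls. The ETS1 controls and the ZNF783 siRNA libraries thus had like ratios, at 36.9 ± 1.11% and 36.1 ± 0.808% (SD, n = 3). The ZNF783 controls, of the same line, stood at 26.2 ± 0.648%, so on this ratio the control groups lay about as far apart as the ZNF783 groups. The ratio also moves with the other 8 genes. ARL6IP1 averaged 388 CPM in the ETS1 controls, 325 in the ZNF783 controls and 446 with ZNF783 siRNA. ATL3 averaged 210, 312 and 326 CPM in these groups, whereas ATL2 and RTN4 were lower in the ZNF783 than the ETS1 controls. Each experiment was scaled on its own, and the cause of the gap between control groups was not tested. The plot of this ratio by library shows the groups apart within each experiment.

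**Figure D3:**
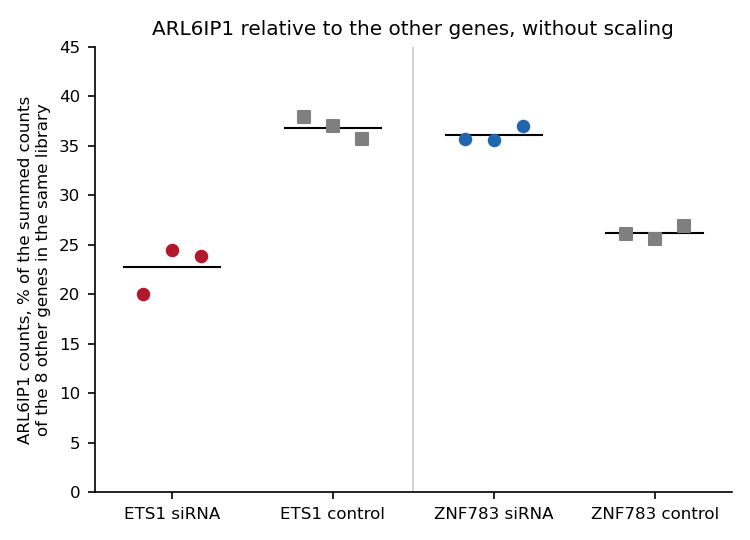
ARL6IP1 counts as a percentage of the summed counts of the other 8 genes in the same library (vertical axis from 0), with lines at group means. The ETS1 siRNA libraries lie at 20 to 24.5%, below their controls at 35.7 to 37.9%, and the ZNF783 siRNA libraries at 35.6 to 37.0%, above their controls at 25.6 to 26.9%.

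How reads were assigned bears on ARL6IP1. It shares 546 of its 3666 annotated exon bases with a same-strand readthrough gene, AC138811.2, that joins it to RPS15A and that is listed at 0 in all 12 libraries. The counting command in the table headers has no option for reads that overlap several genes. Its pseudogenes ARL6IP1P1, ARL6IP1P2 and ARL6IP1P3 had 0 to 3 counts per library. The command also has no strand option. Reads in bases shared with exons on the opposite strand therefore cannot be assigned by strand for ATL1 (987 shared bases), REEP5 (736), CKAP4 (220) and ATL3 (118). ARL6IP1, ATL2, RTN3, RTN4 and LNPK share none. Whether reads in shared bases were counted or left out was not tested.

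The bases just before the annotated transcripts of ARL6IP1 and RTN3 are shown because ETS factors bind sites with a GGAA core, and because these are the genes of the set with the highest levels for their length in both control groups. They come from RefSeq promoter windows of 300 bases (GRCh38.p14), read 5′ to 3′ on the gene's strand. Capitals mark GGAA and CCAAT on either strand, so TTCC and ATTGG as well, with ARL6IP1 at chr16:18801679-18801799 (minus strand, 121 bases) and RTN3 at chr11:63681200-63681445 (plus strand, 246 bases).
ARL6IP1: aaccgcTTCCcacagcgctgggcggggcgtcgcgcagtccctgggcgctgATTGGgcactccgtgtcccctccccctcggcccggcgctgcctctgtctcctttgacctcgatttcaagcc
RTN3: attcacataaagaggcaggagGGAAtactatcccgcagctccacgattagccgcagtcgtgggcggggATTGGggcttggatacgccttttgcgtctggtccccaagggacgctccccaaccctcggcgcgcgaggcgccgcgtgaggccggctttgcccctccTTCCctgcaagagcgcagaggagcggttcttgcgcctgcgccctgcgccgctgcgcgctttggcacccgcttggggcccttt

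Both stretches hold a CCAAT box, and GGAA occurs at 1 place in the ARL6IP1 stretch and at 2 in that of RTN3. All 9 genes had RefSeq windows, 22 in all, and a gene with several windows has more chances to hold a motif. GGAA was found for 9 of 9 genes, in 19 of the 22 windows, beside 95.5% of all 35116 windows. The longer ETS consensus CCGGAAG, present in 10.3% of all windows, was in 0 of the 22. CCAAT was found for 5 of the 9 genes, in 9 of the 22 windows, beside 34.6% of all windows. The cyclic AMP response element TGACGTCA was found for ATL2 alone, in 1 of the 22, beside 1.85% of all windows. The ER stress element, present in 0.0769% of all windows, was in 0 of the 22. Both strands were searched, and CCAAT is part of the ER stress element.

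Of the other 8 genes, all of which passed the filter on low counts, 0 were called with ETS1 siRNA at an edgeR adjusted p under 0.05, where 0.0461% of 19542 genes were called, 0.0256% higher and 0.0205% lower. DESeq2 called 1 of the 8, beside 734 of all genes, and limma-voom with sample weights 3, beside 3863 of all genes. At an unadjusted p under 0.05 there were 2, and the share of all genes at that level is not given here. Without ETS1 siRNA replicate 1, 3 were called higher and 0 lower (REEP5, LNPK and ATL3), where 23.0% of all genes were called, 9.96% higher and 13.0% lower. With the GC and length correction added, that fit called REEP5 higher and RTN4 lower, and neither LNPK nor ATL3. Its share of calls over all genes is not given here. With ZNF783 siRNA 1 was called higher (REEP5) and 2 lower (RTN3 and CKAP4), where 25.1% of 17630 genes were called, 11.3% higher and 13.8% lower. The median log2 fold change of the 8 was 0.01 with each siRNA, beside 0.01 with ETS1 siRNA and 0.00 with ZNF783 siRNA over all genes tested.

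REEP5, a hairpin protein of tubules, was the gene with the largest fold change of the 8 with ETS1 siRNA and was above its controls in every siRNA library of both experiments. It had 206, 188 and 196 CPM with ETS1 siRNA, against 156, 160 and 159 CPM in the controls. The log2 fold change was 0.31 (SE 0.0537; edgeR adjusted p = 0.0984), which missed the threshold. REEP5 rose without ETS1 siRNA replicate 1, by 0.27 (SE 0.0301; edgeR adjusted p = 2.57e-10). With ZNF783 siRNA it had 185, 182 and 179 CPM, against 167, 173 and 172 CPM, and rose by 0.09 (SE 0.0296; edgeR adjusted p = 0.0143). That last call was lost once GC content and length were corrected for (0.04, edgeR adjusted p = 0.296).

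RTN3, the reticulon with the higher level here and an ER-phagy receptor in its long form, was flat with ETS1 siRNA and slightly lower with ZNF783 siRNA. It had 328, 347 and 345 CPM with ETS1 siRNA, against 352, 340 and 332 CPM in the controls, which overlap, with a log2 fold change of 0.00 (95% interval -0.11 to 0.10), and of 0.01 without replicate 1. With ZNF783 siRNA it had 355, 359 and 361 CPM, against 388, 375 and 371 CPM in the controls, and fell by 0.08 (SE 0.0261; edgeR adjusted p = 0.026). The groups did not overlap, yet the call was lost with DESeq2 (adjusted p = 0.0551) and under 8 of 16 alternatives in all.

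RTN4, also known as Nogo, had 51.6, 56.4 and 57.3 CPM with ETS1 siRNA, against 60.6, 59.9 and 58.6 CPM in the controls. All siRNA libraries lay below the controls, but the log2 fold change of -0.11 (95% interval -0.24 to 0.01) missed the threshold (edgeR adjusted p = 0.359), as did -0.08 without replicate 1 (edgeR adjusted p = 0.145). RTN4 was called once GC and length were corrected for and replicate 1 was left out, at -0.11 (edgeR adjusted p = 0.0169). The ZNF783 siRNA libraries had 55.9, 55.1 and 51.2 CPM, against 59.5, 54.6 and 58.2 CPM, at -0.08 (95% interval -0.17 to 0.01; edgeR adjusted p = 0.206). These groups overlap.

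With edgeR and all libraries of an experiment, 0 of the 3 atlastins were called with either siRNA. ATL1 had 13.8 to 16.4 CPM with ETS1 siRNA against 14.8 to 15.7 CPM in its controls, and 16.5 to 18.4 CPM with ZNF783 siRNA against 17.0 to 18.1 CPM in its controls. Its log2 fold changes were -0.02 (95% interval -0.19 to 0.15; -0.07 without ETS1 siRNA replicate 1) and 0.02 (-0.13 to 0.16). ATL2, of wide expression, had 112, 120 and 118 CPM with ETS1 siRNA against 118, 118 and 112 CPM, and 112, 102 and 109 CPM with ZNF783 siRNA against 105, 96.8 and 105 CPM. Its log2 fold changes were 0.02 (95% interval -0.09 to 0.12; 0.04 without ETS1 siRNA replicate 1) and 0.08 (0.01 to 0.15), and the second missed the threshold over all genes (edgeR adjusted p = 0.123). Over the alternatives run, ATL2 went from -0.14 to 0.04 with ETS1 siRNA, and ATL1 from -0.04 to 0.06 with ZNF783 siRNA.

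ATL3, the atlastin with the highest level here, had 213, 227 and 224 CPM with ETS1 siRNA against 207, 215 and 208 CPM in its controls. The log2 fold change was 0.08 (95% interval -0.02 to 0.18; edgeR adjusted p = 0.426). It rose by 0.10 without ETS1 siRNA replicate 1 (SE 0.0294; edgeR adjusted p = 0.0112), and limma-voom with sample weights called it with all libraries (0.10, adjusted p = 0.0328). The GC and length correction ended the call, at 0.02 without replicate 1 (edgeR adjusted p = 0.589), and turned the direction with all libraries, at -0.06 (edgeR adjusted p = 0.729). The ZNF783 siRNA libraries had 335, 332 and 312 CPM against 321, 292 and 324 CPM, at 0.06 (95% interval -0.01 to 0.14; edgeR adjusted p = 0.217), and these groups overlap. Over the alternatives run, that value went from -0.01 to 0.10.

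LNPK had 71.0, 61.3 and 58.2 CPM with ETS1 siRNA, against 49.3, 55.8 and 53.0 CPM in its controls. Every siRNA library lay above every control, with replicate 1 highest, at a log2 fold change of 0.27 (95% interval 0.09 to 0.45; edgeR adjusted p = 0.224). Without replicate 1 it rose by 0.18 (SE 0.0412; edgeR adjusted p = 0.000971). LNPK has the lowest GC content of the 9 genes, and with the GC and length correction it was at 0.08 with all libraries (edgeR adjusted p = 0.496) and at 0.07 without replicate 1 (edgeR adjusted p = 0.155), which ended the call. In the ZNF783 experiment LNPK had 66.6, 66.9 and 63.6 CPM with siRNA, against 66.7, 65.8 and 64.2 CPM in controls, which overlap, at 0.01 (95% interval -0.07 to 0.09). Over the alternatives run, that value went from -0.07 to 0.03.

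CKAP4, the sheet protein, had 87.8, 98.8 and 97.0 CPM with ETS1 siRNA, against 99.1, 99.2 and 101 CPM in its controls. All siRNA libraries were below the controls, replicate 1 by the most, but the log2 fold change of -0.08 (95% interval -0.20 to 0.04) missed the threshold (edgeR adjusted p = 0.496). It was -0.03 without replicate 1 (edgeR adjusted p = 0.519) and 0.04 with the GC and length correction (edgeR adjusted p = 0.618). In the ZNF783 experiment CKAP4 had 123, 127 and 119 CPM with siRNA, against 135, 137 and 134 CPM in controls, and fell by 0.14 (SE 0.0322; edgeR adjusted p = 0.00116). CKAP4 has the highest GC content of the 9 genes, 55.9% against 37.9 to 44.4% for the others, and its call was lost with the GC and length correction (-0.06, edgeR adjusted p = 0.134).

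**Figure D4:**
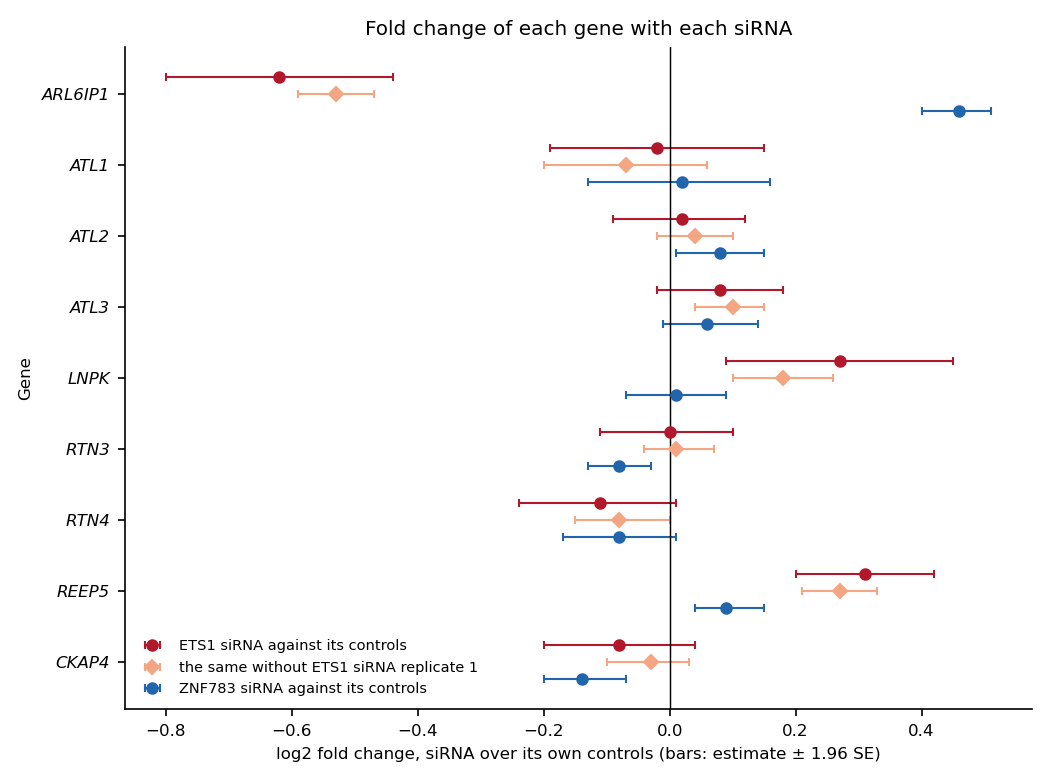
Log2 fold change of each gene (horizontal axis), siRNA over its own controls, with bars for the 95% interval by normal approximation, narrower than the edgeR test implies. ARL6IP1 lies at -0.62 with ETS1 siRNA and 0.46 with ZNF783 siRNA, while the other genes lie between -0.14 and 0.31 in both experiments, also without ETS1 siRNA replicate 1.

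The difference between the siRNA effects was tested in all 12 libraries, and 0 of the 8 genes were called, where 1.68% of 19594 genes were, 1.11% higher and 0.577% lower. At an unadjusted p under 0.05 there were 2, DESeq2 called 1 and limma-voom 3. The matching shares over all genes are not given here, so these counts cannot be read as particular to the 8. The values, ETS1 siRNA minus ZNF783 siRNA, were highest for LNPK at 0.28 (edgeR adjusted p = 0.214) and REEP5 at 0.23 (edgeR adjusted p = 0.0784). Without ETS1 siRNA replicate 1 these were 0.17 for LNPK (edgeR adjusted p = 0.047) and 0.17 for REEP5 (edgeR adjusted p = 0.00194), and 2 of 8 were called, both higher, where 13.7% of all genes were, 6.25% higher and 7.41% lower. ATL1, ATL2, ATL3, RTN3, RTN4 and CKAP4 lay between -0.05 and 0.09.

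The wider pathway was read from 57 other genes in 8 lists, all of them tested. With ETS1 siRNA 0 of 57 were called by edgeR, where 0.0461% of all genes were. DESeq2 called 1, beside 734 of all genes, and limma-voom 17, beside 3863 of all genes. At an unadjusted p under 0.05 there were 12, and the share of all genes at that level is not given here. Leaving out ETS1 siRNA replicate 1, 7 were higher and 13 lower, where 23.0% of all genes were called. With ZNF783 siRNA 7 rose and 12 fell, where 25.1% of all genes were called, with a median of -0.02 over the 57, beside 0.00 over all genes.

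Among REEP5's relatives with ZNF783 siRNA, 3 of 5 fell and 1 rose, where 13.8% of all genes were called lower and 11.3% higher. REEP2, best known from neurons, averaged 17.2 ± 1.84 CPM with the siRNA and 25.3 ± 1.86 CPM in the controls (SD, n = 3 each), a fall of 0.56 on the log2 scale (edgeR adjusted p = 1.93e-07). REEP1, a spastic paraplegia gene, fell by 0.24 (edgeR adjusted p = 0.0115) and REEP4, which clears ER from mitotic chromosomes, by 0.11 (edgeR adjusted p = 0.00824), a direction that turned to 0.03 (edgeR adjusted p = 0.563) under the GC correction. REEP3, its near relative, rose by 0.13 (edgeR adjusted p = 0.00122). With ETS1 siRNA REEP4 was at -0.35 (edgeR adjusted p = 0.254), and without replicate 1 it fell by 0.21 (edgeR adjusted p = 1.92e-06).

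Of 6 hairpin and reticulon relatives, RTN2 fell by 0.27 with ZNF783 siRNA (edgeR adjusted p = 0.000323). TMEM33, an ER membrane protein that binds reticulons, fell by 0.15 there (edgeR adjusted p = 9.87e-05). TMEM33 averaged 246 ± 15.3 CPM with ETS1 siRNA and 190 ± 9.83 CPM in its controls, and 213 ± 6.28 CPM with ZNF783 siRNA and 236 ± 5.11 CPM in its controls (SD, n = 3 each). Its value with ETS1 siRNA was 0.38 (edgeR adjusted p = 0.1; without replicate 1 it rose by 0.32, edgeR adjusted p = 3.48e-10). ARL6IP5, a relative that shares part of its name with ARL6IP1, was at -0.16 with ETS1 siRNA (edgeR adjusted p = 0.19), and fell by 0.17 without replicate 1 (edgeR adjusted p = 2.44e-05). TMEM33 was the 1 pathway gene of 57 called for the difference between the siRNA effects, where 1.68% of all genes were called. Its difference was 0.54 (edgeR adjusted p = 0.0039), and ARL6IP1's own direction is the opposite one. Without ETS1 siRNA replicate 1, 10 of the 57 were called, 5 in each direction. Of all genes 13.7% were called there, 6.25% higher and 7.41% lower. These counts cannot be read as particular to the 57.

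Sheet and ribosome-binding proteins with ZNF783 siRNA had 3 of 8 genes lower and 0 higher, beside 13.8% and 11.3% of all genes. SEC61B and SEC61A1, subunits of the channel through which proteins enter the ER, fell by 0.34 (edgeR adjusted p = 1.68e-07) and by 0.12 (edgeR adjusted p = 0.00036). RRBP1, a ribosome-binding protein of sheets, fell by 0.17 (edgeR adjusted p = 0.000207). With ETS1 siRNA RRBP1 was at -0.15 (edgeR adjusted p = 0.248) and KTN1, the sheet protein kinectin, at 0.29 (edgeR adjusted p = 0.276). Without replicate 1 RRBP1 fell by 0.12 (edgeR adjusted p = 0.00557) and KTN1 rose by 0.12 (edgeR adjusted p = 0.00318), a gene whose value ran from -0.01 to 0.37 over 17 settings. SEC61B had 23.6 CPM in ETS1 siRNA replicate 1, against 47.8 and 45.4 CPM in replicates 2 and 3 and 46.2 to 51.3 CPM in the controls, so its low group mean rests on that library (-0.30, and -0.06 without it).

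Tubule network, severing and junction factors had 3 of 12 genes higher and 1 lower with ZNF783 siRNA, beside 11.3% and 13.8% of all genes. SPAST, the microtubule-severing enzyme spastin, rose by 0.12 (edgeR adjusted p = 0.0471), TMCC1, a coiled-coil ER protein, by 0.14 (edgeR adjusted p = 0.0175) and RAB18, a GTPase of the ER, by 0.08 (edgeR adjusted p = 0.044). TMCC2 fell by 0.45 (edgeR adjusted p = 0.00087), from few reads, at 7.93 ± 0.339 CPM with the siRNA and 10.8 ± 1.59 CPM in the controls (SD, n = 3 each). With ETS1 siRNA SPAST was at 0.18 (edgeR adjusted p = 0.277), and without replicate 1 it rose by 0.19 (edgeR adjusted p = 0.0178). Under the GC and length correction SPAST, TMCC1 and RAB18 were no longer called and TMCC2 was.

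Among 7 ER-phagy receptors with ZNF783 siRNA, CALCOCO1 rose by 0.18 (edgeR adjusted p = 0.00164) and RETREG2 by 0.11 (edgeR adjusted p = 0.00856), while TEX264 fell by 0.15 (edgeR adjusted p = 0.00312). RETREG3 had 43.4, 59.0 and 58.6 CPM with ETS1 siRNA, against 70.9, 67.5 and 70.4 CPM in the controls, at -0.37 (edgeR adjusted p = 0.204; without replicate 1 it fell by 0.25, edgeR adjusted p = 3.06e-07). Among 7 contact-site tethers ESYT2 rose by 0.11 (edgeR adjusted p = 0.002) and its relative ESYT1 fell by 0.09 (edgeR adjusted p = 0.00896) with ZNF783 siRNA. ESYT1 was called there under 10 of 16 alternatives. With ETS1 siRNA ESYT1 was at -0.17 (edgeR adjusted p = 0.324) and PDZD8, a lipid transfer protein, at 0.12 (edgeR adjusted p = 0.376). Without replicate 1 ESYT1 fell by 0.09 (edgeR adjusted p = 0.0183) and PDZD8 was at 0.04 (edgeR adjusted p = 0.414). Of 9 genes of ER lipid supply, CTDNEP1, a phosphatase that restrains ER membrane synthesis through lipin, fell by 0.24 with ZNF783 siRNA (edgeR adjusted p = 7.36e-05). It was at -0.20 with ETS1 siRNA (edgeR adjusted p = 0.209), and fell by 0.19 without replicate 1 (edgeR adjusted p = 0.000422). Its partner subunit CNEP1R1 was at 0.17 with ETS1 siRNA (edgeR adjusted p = 0.271) and at 0.16 without replicate 1 (edgeR adjusted p = 0.0521). PDZD8 shares 2157 exon bases with genes of the opposite strand, CTDNEP1 518, RETREG2 291, ESYT1 255 and RETREG3 139. With genes of the same strand CTDNEP1 shares 305, TEX264 184 and ESYT1 133. The counts of these genes are less certain.

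ARL6, the small GTPase after which ARL6IP1 was named, and INPP5K and ARL6IP4 were not called by edgeR with either siRNA over all libraries. ARL6 was at 0.25 with ETS1 siRNA (edgeR adjusted p = 0.228; without replicate 1 it rose by 0.16, edgeR adjusted p = 0.00544) and at -0.04 with ZNF783 siRNA (edgeR adjusted p = 0.625). INPP5K, a phosphoinositide phosphatase that ARL6IP1 brings to the ER, was at -0.09 (edgeR adjusted p = 0.558; -0.03 without replicate 1) with ETS1 siRNA and 0.04 with ZNF783 siRNA (edgeR adjusted p = 0.582). ARL6IP4 was at -0.20 with ETS1 siRNA (edgeR adjusted p = 0.663; -0.11 without replicate 1) and 0.37 with ZNF783 siRNA (edgeR adjusted p = 0.369). The ARL6IP4 values rest on 8 to 44 counts per library. Of its 2781 exon bases, 2377 are shared with a gene of the same strand and 1590 with one of the opposite strand. Its lack of a call is thus weak evidence of no change. The plot by list sets all 57 genes out for both siRNAs.

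**Figure D5:**
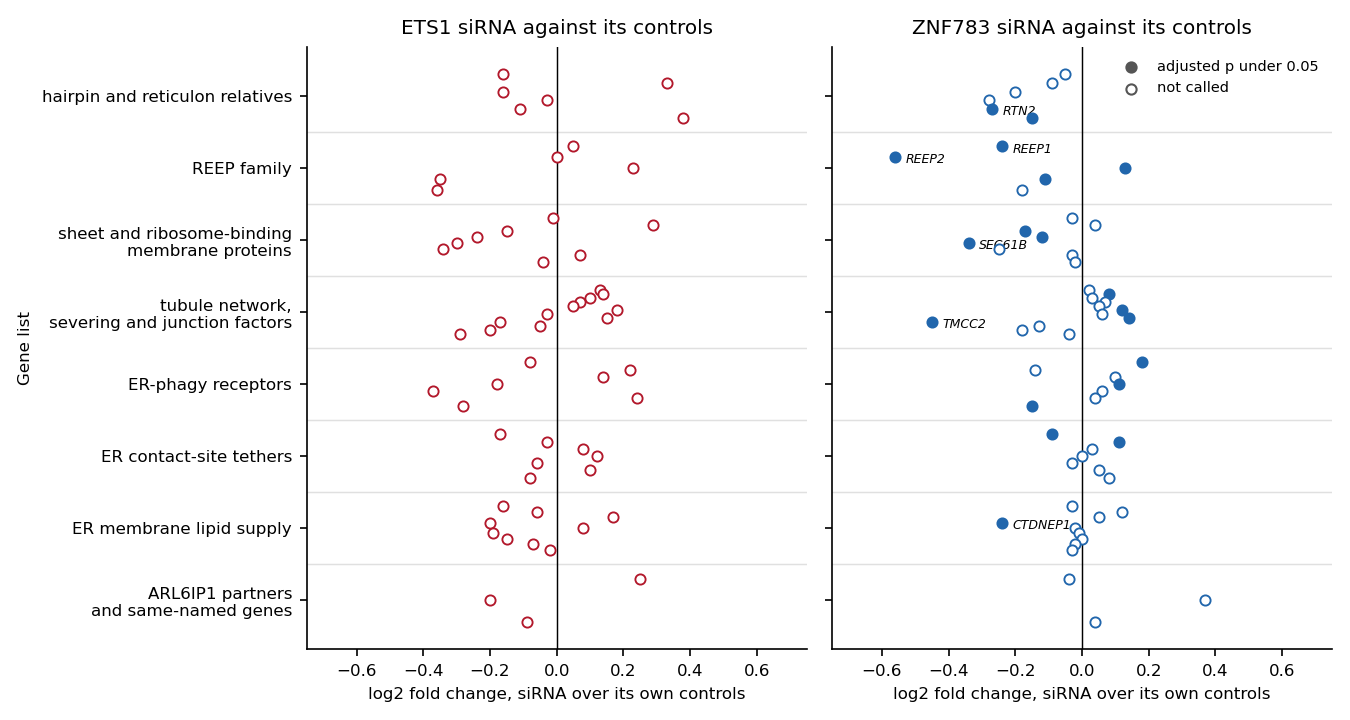
Log2 fold change (horizontal axis) of 57 genes in 8 lists with ETS1 siRNA and with ZNF783 siRNA, each over its own controls; filled points are called at an edgeR adjusted p under 0.05 over all genes. No point is filled with ETS1 siRNA, and 19 are with ZNF783 siRNA, 7 to the right of 0 and 12 to the left, with REEP2 farthest at -0.56.

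ARL6IP1's neighbours on chromosome 16 moved less than it did. RPS15A, a ribosomal protein gene 1284 bases away on the same strand, had 40.6, 90.3 and 90.1 CPM with ETS1 siRNA, against 97.0, 99.4 and 95.6 CPM in the controls. With ZNF783 siRNA it had 76.0, 76.5 and 77.2 CPM, against 68.8, 69.4 and 66.6 CPM. The first comparison gave -0.40 (edgeR adjusted p = 0.435) and, without replicate 1, a fall of 0.12 (edgeR adjusted p = 0.00774), and the second a rise of 0.17 (edgeR adjusted p = 0.00108). Its directions are those of ARL6IP1, at smaller size without replicate 1, and the shared readthrough gene makes reads at these loci uncertain.

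SMG1, a kinase of nonsense-mediated decay 3175 bases on the other side, was at 0.05 with ETS1 siRNA (edgeR adjusted p = 0.588; 0.02 without replicate 1) and rose by 0.11 with ZNF783 siRNA (edgeR adjusted p = 0.00192). NOMO2, which has near-identical copies that make its counts uncertain, was at -0.16 with ETS1 siRNA (edgeR adjusted p = 0.412; -0.06 without replicate 1) and fell by 0.21 with ZNF783 siRNA (edgeR adjusted p = 0.000769). COQ7 and ITPRIPL2 were not called with either siRNA over all libraries, and ITPRIPL2 was called higher without ETS1 siRNA replicate 1 (0.12, edgeR adjusted p = 0.0336).

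Genes whose levels followed ARL6IP1 most closely were sought among 9741 genes over the 12 libraries, on log2 CPM minus the mean of each experiment. As a description, UHMK1, a serine/threonine kinase gene, had a Pearson r of 0.995, TOMM70, a mitochondrial import receptor gene, 0.985, TXNIP 0.980, ZNF789 0.968 and SNHG1 0.967. The points share library depth and scaling, and they fall in 2 groups within each experiment, so r mostly restates that both contrasts run the same way. UHMK1 averaged 521 ± 26.1 CPM with ETS1 siRNA and 640 ± 14.4 CPM in its controls, and 684 ± 4.20 CPM with ZNF783 siRNA and 586 ± 14.5 CPM in its controls (SD, n = 3 each). The lowest values were those of DIO2, a deiodinase gene, at -0.971, COTL1 at -0.970 and BMPR1A at -0.966. DIO2 averaged 20 ± 2.08 CPM with ETS1 siRNA and 10.3 ± 0.166 CPM in its controls, and 11.8 ± 0.0993 CPM with ZNF783 siRNA and 21.4 ± 1.27 CPM in its controls.

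None of the other 8 ER shaping genes was close to ARL6IP1 on this measure over the 12 libraries. The values were 0.382 for ATL2, 0.350 for RTN4, 0.034 for CKAP4, 0.010 for ATL1, -0.006 for ATL3, -0.204 for RTN3, -0.620 for REEP5 and -0.741 for LNPK. Without ETS1 siRNA replicate 1 they ran between -0.598 for RTN3 and 0.412 for ATL1, and UHMK1 was at 0.996.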

How the data were processed

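The authors deposited 2 tables of raw read counts per gene, 1 for each knockdown, which per the file headers were made with featureCounts 2.0.1 on exons of Homo_sapiens GRCh38 annotation release 107, in paired-end mode and with no strand option. The submitters' processing notes name hg38. Per the labels' protocols, total RNA was made into libraries with a directional NEBNext Ultra kit. 99.8% of IDs had a symbol in the reference tables, and 0 columns were left unused.

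Counts were tested with edgeR 4.0.16 in R 4.3.3 (default expression filter, TMM scaling, robust quasi-likelihood F test, Benjamini-Hochberg over all genes, called under 0.05), each experiment alone, and the difference of effects over all 12 libraries. CPM were TMM-scaled within each experiment. Exon lengths, overlaps and GC content came from GENCODE 29, not release 107. Scripts were tested on simulated data. Alternatives used DESeq2 1.42.0 and limma 3.58.1.

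The members and lists were chosen with earlier results of these data known. Named were all members; called genes of each list, or else the smallest p-values, up to 4 a list; the chromosome 16 neighbours; and the 5 highest and 3 lowest correlations with ARL6IP1, among genes averaging 10 CPM or more in both experiments and without clone-based, antisense or pseudogene symbols. A list of markers of the labelled cell type is not reported here.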

Additional observations from a re-analysis of the deposited data

Results flagged for a closer look

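The difference between the siRNA effects, ETS1 siRNA minus ZNF783 siRNA on the log2 scale, was listed for 4 genes. For ARL6IP1 it was -1.07, with all ETS1 siRNA libraries below their controls and all ZNF783 siRNA libraries above theirs; the gene was chosen for this and the difference was not tested. TMEM33 differed by 0.54 (edgeR adjusted p = 0.0039), and by 0.47 without ETS1 siRNA replicate 1. RETREG3 lay below its controls in every ETS1 siRNA library and above in every ZNF783 siRNA library, and its difference of -0.42 missed the threshold (edgeR adjusted p = 0.116; -0.32, edgeR adjusted p = 9.42e-06, without replicate 1). RPS15A did the same, with a difference of -0.54 (edgeR adjusted p = 0.446; -0.28, edgeR adjusted p = 3.09e-05, without replicate 1).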

How the results depend on the processing

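ARL6IP1 kept its direction under every alternative run, at -0.73 to -0.53 with ETS1 siRNA, 0.40 to 0.47 with ZNF783 siRNA and -1.12 to -0.97 for the difference; leaving out 1 library gave -0.69 to -0.53, 0.43 to 0.48 and -1.13 to -0.99. Counts of calls moved more, and the cause was not tested. With ETS1 siRNA, 0 of the 8 other members and 0 of the 57 pathway genes were called; the counts were 1 and 1 with no expression filter, 1 and 1 with DESeq2, 3 and 17 with limma-voom and sample weights, and 2 and 5 in 1 fit of all 12 libraries. Leaving out 1 library gave 0 to 3 members and 0 to 20 pathway genes, the highest without ETS1 siRNA replicate 1, and 2 (1 higher and 1 lower) and 17 without it and with the GC and length correction, chosen after seeing the data. With ZNF783 siRNA, 3 members and 19 pathway genes were called, against 1 member with the GC and length correction and 0 and 4 in 1 fit of all 12 libraries. Leaving out 1 library gave 1 to 3 members, with 1 without ZNF783 siRNA replicate 1 and 1 without ZNF783 control replicate 1. For the difference, 0 members and 1 pathway gene were called, against 0 and 3 with no filter, 1 and 3 with DESeq2, 3 and 11 with limma-voom, and 0 and 4 with the GC and length correction. Leaving out 1 library gave 0 to 2 members and 1 to 10 pathway genes, and 2 and 12 without ETS1 siRNA replicate 1 and with the correction. The main fits called 0.0461% of all genes with ETS1 siRNA, 25.1% with ZNF783 siRNA and 1.68% for the difference. For most of these alternatives and those of the next paragraph, the share of all genes called is not given here. The counts thus cannot be read as changes particular to the members or the pathway.

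Replicate numbers showed no clear pairing of the samples: correlations of same-numbered deviations were 0.09, -0.23 and 0.29 in the ETS1 experiment and -0.08, -0.05 and -0.05 in the ZNF783 experiment. So few libraries, with ETS1 siRNA replicate 1 apart from its group, cannot exclude a pairing. With the replicate block, ARL6IP1 was at -0.63 with ETS1 siRNA, 0.46 with ZNF783 siRNA and -1.07 for the difference, members called were 0, 3 and 0, and pathway genes called were 0, 20 and 0, TMEM33 being lost for the difference. With the block and the GC and length correction, ARL6IP1 was at -0.73, 0.41 and -1.12, members called were 0, 2 and 0, and pathway genes called 0, 16 and 2. Over all genes, edgeR called 9 with ETS1 siRNA, against 4649 without replicate 1, 253 with no filter, 734 with DESeq2, 3863 with limma-voom, 22 with the correction and 0 with the block.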
